A study of Schizosaccharomyces pombe
Saccharomyces cerevisiae with 8 samples.

Results

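A set of 10 genes of glycolysis and ethanol fermentation was followed in budding yeast after auxin was given to cells whose Mediator subunits Med14 and Med17 carry degron tags. The 10 genes were chosen by name, for the enzymes they encode, with earlier results of these data known. They were FBA1 (YKL060C), TDH1 (YJL052W), TDH2 (YJR009C), TDH3 (YGR192C), PGK1 (YCR012W), GPM1 (YKL152C), ENO1 (YGR254W), ENO2 (YHR174W), CDC19 (YAL038W) and ADH1 (YOL086C), and all 10 stood in both deposited tables, of 6518 features for total RNA and 2822 features for newly synthesized RNA. In total RNA these transcripts had a median log2 fold change of -0.43, auxin over DMSO, against -1.85 over all tested features. In newly synthesized RNA their median was -2.89, against -2.80 over the listed features, a set selected for low authors' p-values. The references in the 2 kinds of RNA are thus different sets of features. The less abundant isoenzymes TDH1, TDH2 and ENO1 had lower fold changes than the abundant TDH3 and ENO2 in both kinds of RNA.

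Glycolysis splits a molecule of glucose into pyruvate with a net gain of ATP, and in fermenting yeast pyruvate is decarboxylated to acetaldehyde and reduced to ethanol, which regenerates the NAD+ that glycolysis uses. The enzymes from aldolase onward are among the most abundant proteins of yeast growing on glucose, and several steps have more than one isoenzyme. Their genes are known targets of the activators Gcr1, Gcr2, Rap1 and Tye7. Mediator is the coactivator that joins such activators to RNA polymerase II, and Med14 and Med17 are structural subunits of it.

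The auxin groups received 500 µM auxin (3-indole acetic acid, 3-IAA) for 30 min, and the DMSO groups received the carrier for the same time. Both were then labelled with 5 mM 4-thiouracil for 6 min, in YPD at mid-log phase. Every group was the same strain, GZY380 (MATalpha, ade2Δ::hisG, his3Δ200, leu2Δ0, lys2Δ0, met15Δ0, trp1Δ63 and ura3Δ0), and the DMSO cells carried the same alleles as the auxin cells: OsTIR1 integrated at his3 as pGPD1-OsTIR1-HIS3, MED14-3HA-IAA7-URA3 and MED17-3V5-IAA7-kanMX6. The labels name the promoter of OsTIR1, the rice auxin receptor, as pGPD1 and say no more of it, and no strain without the tags or without OsTIR1 was analysed here. S. pombe cells were mixed in at 3 parts to 1 part of S. cerevisiae ahead of extraction. Sequencing covered total RNA and the RNA that had taken up 4-thiouracil, each from 2 auxin and 2 DMSO samples, making 4 groups of 2 libraries, which the design text calls biological replicates.

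The listed counts of a library summed to 4817883 and 5882137 in newly synthesized auxin, 13125438 and 15744423 in newly synthesized DMSO, 10862028 and 13970025 in total auxin, and 17491251 and 13004246 in total DMSO. The authors' size factors, by which counts were divided, were 1.59 and 1.56 in newly synthesized auxin, 0.613 and 0.657 in newly synthesized DMSO, 1.05 and 1.19 in total auxin, and 1.09 and 0.728 in total DMSO. The newly synthesized RNA table was partial. A full number of 6707 features was inferred from the authors' p-values, their ranks and the adjusted p-values, and is not stated by the authors. By that number the table held the 42.1% of features with the lowest authors' p-values. The authors' log2 fold change was at or below -2.20 for every listed feature, so a call of lower there is set by that selection. The mating type matched its markers: the alpha genes STE3, MF(ALPHA)1 and MF(ALPHA)2 had between 541 and 1501 normalized counts in total auxin libraries and between 3445 and 4868 in total DMSO libraries, and the a-factor genes MFA1 and MFA2 had at most 3 raw counts in any total RNA library. Of the other a-specific genes, STE6 had the most, with 80.8 and 98.2 normalized counts in total auxin libraries and 345 and 411 in total DMSO libraries. Transcripts of the tagged genes, which say nothing of the proteins, stood at 1294 and 1564 normalized counts for RGR1 (MED14) in total auxin libraries, against 3249 and 3667 in total DMSO libraries, and at 617 and 742 for SRB4 (MED17), against 2270 and 2812. In bulk RNA, fewer cells and less RNA per cell cannot be told apart. Levels of the 10 genes are given below as normalized count per kb of coding length, that is, the raw count divided by the authors' size factor and by length.

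In total RNA, 7 of the 10 transcripts were called lower in auxin and none higher with the authors' scaling, whereas with TMM scaling, which sets the median change near zero, none was lower and 9 were higher (edgeR quasi-likelihood test, Benjamini-Hochberg adjusted p below 0.05 over all 5589 tested features). With the authors' scaling 92.3% of all tested features were called lower and 0.769% higher, and no test compared that share with the count of 7 among the 10 enzymes. Leaving out 1 library in turn gave a median log2 fold change of the enzymes between -0.61 (without auxin replicate 2) and -0.32 (without auxin replicate 1). Calls that were lost in this way are given with each gene below. The DESeq2 test with the authors' scaling called 9 of the 10 lower, and it called 5125 features in all, 29 of them higher. With TMM scaling the background was 32.3% lower and 29.6% higher. TMM scaling moved the median of all tested features to -0.09. A change of scaling shifts all features by about the same amount, so it keeps distances between them and does not test them. The distance of the enzymes' median from the median of all features was 1.42 on the log2 scale with the authors' scaling and 1.43 with TMM. Both auxin libraries lay below both DMSO libraries for all 10 genes with the authors' scaling, which held for 94.6% of all tested features.

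**Figure D1:**
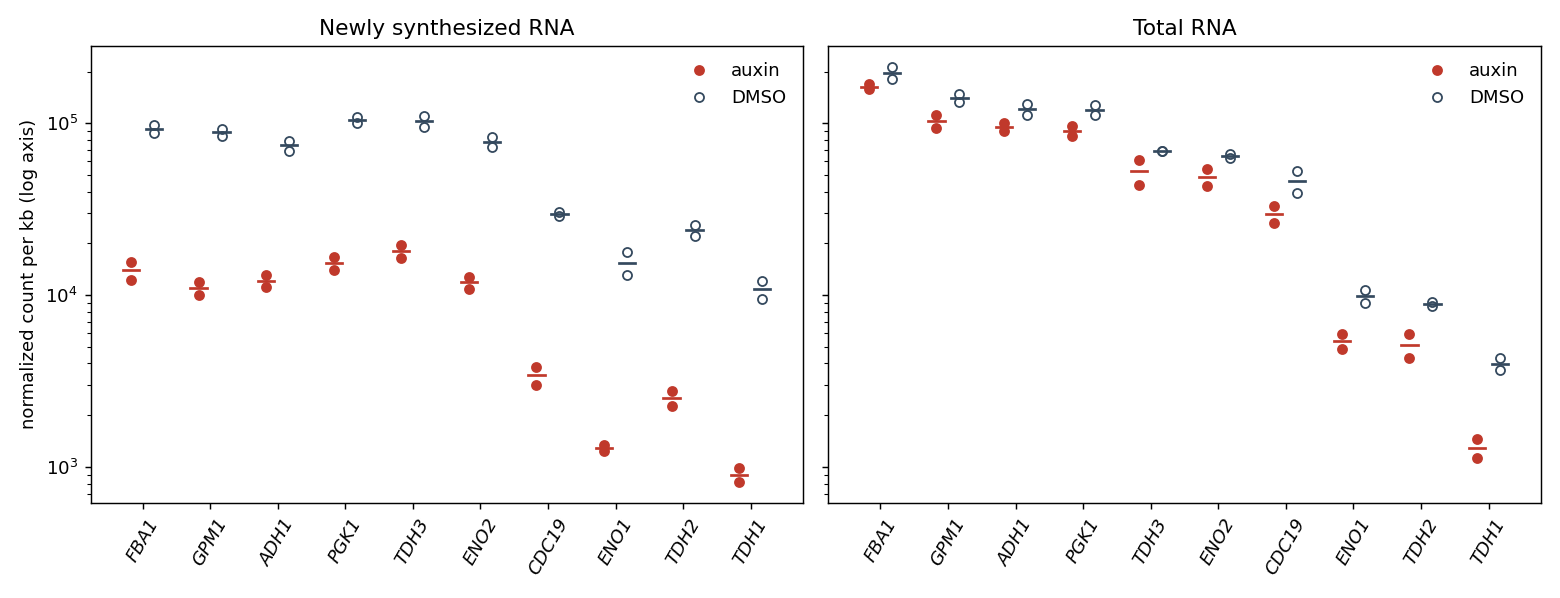
Normalized count per kb (log axis) of each enzyme gene in every library, with auxin as filled and DMSO as open circles and the group mean as a bar (2 libraries each), for newly synthesized RNA on the left and total RNA on the right. With the authors' scaling the auxin points lie below the DMSO points for every gene in both panels, with the wider gap in newly synthesized RNA. With TMM scaling, which is not drawn, 9 genes are called higher in auxin in total RNA and 2 in newly synthesized RNA.

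FBA1, on chromosome XI (326408 to 327487, sacCer3), encodes the aldolase that splits fructose-1,6-bisphosphate, and had the highest normalized count per kb of the 10 genes in total RNA. It stood at 157835 and 168784 normalized counts per kb in total auxin libraries, against 180094 and 213770 in total DMSO libraries. The groups did not overlap, and FBA1, with the log2 fold change nearest zero of the 10, was not called (log2 fold change -0.27, SE 0.195, edgeR adjusted p = 0.175). The SEs of the 10 genes in total RNA lay between 0.195 for FBA1 and 0.202 for ENO1. The test shares its estimate of spread between features, so an SE is not the spread of that gene's libraries alone. Newly synthesized FBA1 RNA stood at 12327 and 15587 normalized counts per kb in auxin, against 87420 and 98247 in DMSO. That difference was called lower (log2 fold change -2.73, SE 0.221), as was every listed feature of newly synthesized RNA. The listing was selected on the same comparison, so the call adds nothing for a single gene. The fitted fold changes correspond to 82.9% of the DMSO level in total RNA and 15.0% in newly synthesized RNA.

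Glyceraldehyde-3-phosphate dehydrogenase, the step that makes NADH, has the isoenzymes Tdh1, Tdh2 and Tdh3, and TDH3 is the abundant one in growing cells. TDH3, on chromosome VII (882812 to 883810), stood at 43823 and 61351 normalized counts per kb in total auxin libraries, against 69223 and 68908 in total DMSO libraries. The auxin libraries differed from each other more than the DMSO libraries did. With all libraries TDH3 was not called (log2 fold change -0.39, SE 0.200, edgeR adjusted p = 0.0534). It was called when auxin replicate 2 was left out (log2 fold change -0.66, edgeR adjusted p = 0.0367). A fit without 1 library leaves 1 library in that group, which is assumed to vary like the other group. TDH2, on chromosome X (453683 to 454681), stood at 4289 and 5968 normalized counts per kb in total auxin libraries, against 9111 and 8634 in total DMSO libraries, and was called lower (log2 fold change -0.79, SE 0.200, edgeR adjusted p = 9.13e-05). TDH1, on the same chromosome (338271 to 339269), is the isoenzyme known for stationary-phase and stress conditions. It stood at 1121 and 1453 normalized counts per kb in total auxin libraries, against 3650 and 4305 in total DMSO libraries, and had the lowest fold change of the 10 (log2 fold change -1.63, SE 0.198, edgeR adjusted p = 4.35e-16). With TMM scaling TDH1 was the only one of the 10 not called (log2 fold change 0.13), while TDH2 and TDH3 were higher (0.96 and 1.36).

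The same order held within the step in newly synthesized RNA. TDH3 stood at 16537 and 19570 normalized counts per kb in auxin, against 95571 and 109648 in DMSO. TDH2 stood at 2276 and 2782 in auxin, against 22229 and 25606 in DMSO. TDH1 stood at 984 and 817 in auxin, against 9484 and 12157 in DMSO. All 3 pairs of groups were far apart, with log2 fold changes of -2.51 for TDH3 (SE 0.218), -3.24 for TDH2 (SE 0.257) and -3.59 for TDH1 (SE 0.273). All 3 were called lower with the authors' scaling, as was every listed feature. With TMM scaling TDH1 and TDH2 stayed lower (log2 fold changes -0.77 and -0.45) while TDH3 was higher (0.29).

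Phosphoglycerate kinase and phosphoglycerate mutase carry the pathway from 1,3-bisphosphoglycerate to 2-phosphoglycerate, and the kinase makes the first ATP of the pathway's pay-off phase. PGK1, on chromosome III (137746 to 138996), stood at 84278 and 96432 normalized counts per kb in total auxin libraries, against 112593 and 127529 in total DMSO libraries (log2 fold change -0.41, SE 0.197, edgeR adjusted p = 0.0408). GPM1, on chromosome XI (163642 to 164385), stood at 94523 and 111854 normalized counts per kb in total auxin libraries, against 132338 and 148174 in total DMSO libraries (log2 fold change -0.44, SE 0.199, edgeR adjusted p = 0.0284). Both were called lower by a narrow margin, and both calls were lost without DMSO replicate 2 (edgeR adjusted p = 0.180 for PGK1 and 0.149 for GPM1), without auxin replicate 1 (0.344 and 0.317) and without auxin replicate 2 (0.121 and 0.0769), where the log2 fold changes were -0.51 for PGK1 and -0.57 for GPM1. Newly synthesized PGK1 RNA stood at 14054 and 16711 normalized counts per kb in auxin, against 100265 and 109115 in DMSO, a log2 fold change of -2.77 (SE 0.216). GPM1 stood at 10029.7 and 11984 in auxin, against 84709 and 92684 in DMSO, a log2 fold change of -3.01 (SE 0.233). With TMM scaling GPM1 stayed lower in newly synthesized RNA (log2 fold change -0.22) and PGK1 was not called (0.02), while both were higher in total RNA (1.36 for PGK1 and 1.32 for GPM1).

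Enolase forms phosphoenolpyruvate and has the isoenzymes Eno1 and Eno2, of which Eno2 is the glucose-induced one. ENO2, on chromosome VIII (451327 to 452640), stood at 43329 and 54128 normalized counts per kb in total auxin libraries, against 62769 and 65977 in total DMSO libraries (log2 fold change -0.40, SE 0.200, edgeR adjusted p = 0.0477). Leaving out any of the 4 libraries took it past the threshold. The log2 fold change was -0.44 without DMSO replicate 1 (edgeR adjusted p = 0.0832) and -0.57 without auxin replicate 2 (0.0721), larger than with all libraries, and it was -0.37 without DMSO replicate 2 (0.151) and -0.25 without auxin replicate 1 (0.437). ENO1, on chromosome VII (1000927 to 1002240), stood at 4837 and 5932 normalized counts per kb in total auxin libraries, against 8970.1 and 10731 in total DMSO libraries, and was called lower (log2 fold change -0.87, SE 0.202, edgeR adjusted p = 1.91e-05). Newly synthesized ENO2 RNA stood at 10870.4 and 12833 normalized counts per kb in auxin, against 72423 and 83424 in DMSO, a log2 fold change of -2.72 (SE 0.221). ENO1 stood at 1240.4 and 1345 in auxin, against 13058 and 17828 in DMSO, a log2 fold change of -3.58 (SE 0.264). With TMM scaling ENO1 stayed lower in newly synthesized RNA (log2 fold change -0.77) and ENO2 was not called (0.08), and in total RNA both were higher (0.89 for ENO1 and 1.36 for ENO2).

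CDC19 encodes the main pyruvate kinase, which makes ATP and pyruvate at the end of glycolysis, and lies on chromosome I (71786 to 73288). It stood at 26213 and 32857 normalized counts per kb in total auxin libraries, against 53089 and 39352 in total DMSO libraries. The groups did not overlap, the DMSO libraries lay far apart, and the difference was called lower (log2 fold change -0.65, SE 0.201, edgeR adjusted p = 0.00150). The call was lost when DMSO replicate 1 was left out (log2 fold change -0.41, edgeR adjusted p = 0.117), and it was lost without auxin replicate 1 as well (log2 fold change -0.49, edgeR adjusted p = 0.119). DMSO replicate 1 had 1.35 times the CDC19 level of DMSO replicate 2 in total RNA, the rank 10 spread of the 1947 features with at least 1000 counts in both libraries. That ratio was 0.947 in newly synthesized RNA, where CDC19 stood at 3016 and 3830 normalized counts per kb in auxin, against 28971 and 30608 in DMSO (log2 fold change -3.12, SE 0.242). With TMM scaling CDC19 stayed lower in newly synthesized RNA (log2 fold change -0.34) and was higher in total RNA (1.10).

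ADH1, on chromosome XV (159548 to 160594), encodes the cytosolic alcohol dehydrogenase that reduces acetaldehyde to ethanol. It stood at 90748 and 100445 normalized counts per kb in total auxin libraries, against 111517 and 130161 in total DMSO libraries. The groups did not overlap and the difference was not called (log2 fold change -0.34, SE 0.198, edgeR adjusted p = 0.0933). Newly synthesized ADH1 RNA stood at 11127 and 13136 normalized counts per kb in auxin, against 69480 and 79306 in DMSO, a log2 fold change of -2.62 (SE 0.225). With TMM scaling ADH1 was higher in both kinds of RNA (log2 fold change 1.43 in total RNA and 0.18 in newly synthesized RNA). All 10 enzymes were called lower in newly synthesized RNA with the authors' scaling, as were 100% of the listed features. With TMM scaling 5 were lower, 2 higher and 3 not called, in a background of 25% lower and 21.2% higher.

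**Figure D2:**
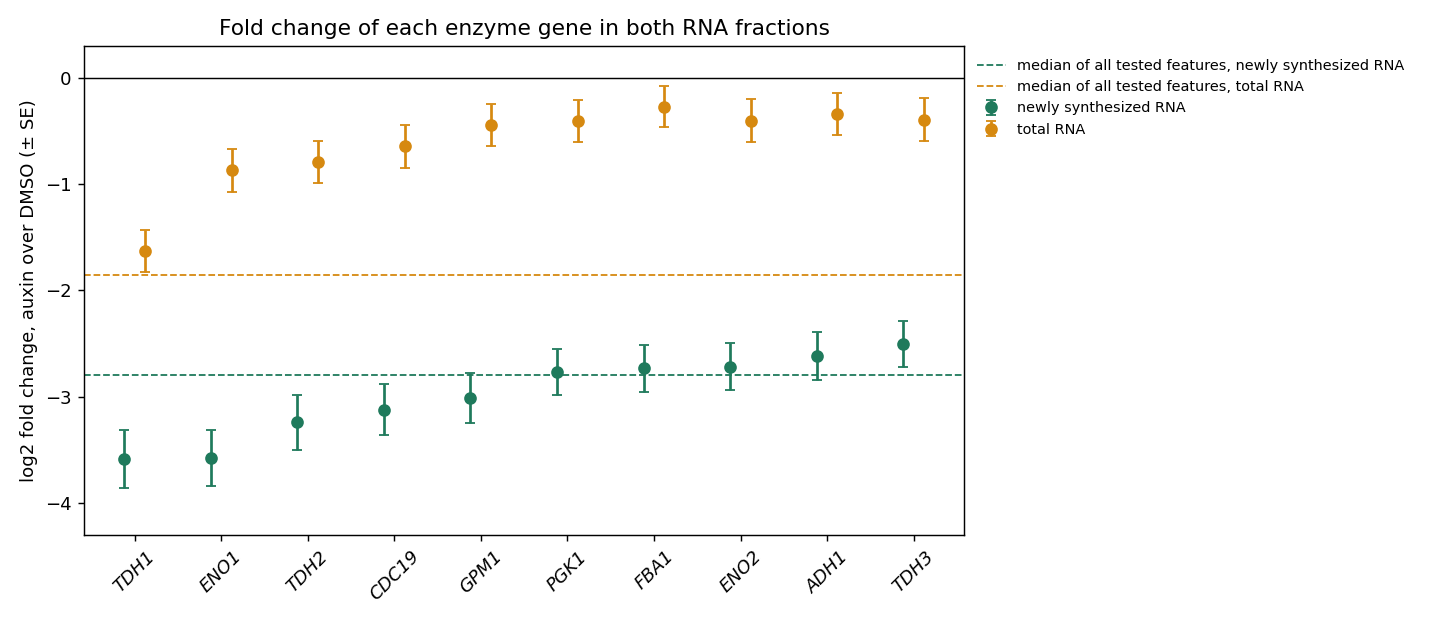
Log2 fold change, auxin over DMSO, with its standard error, for each enzyme gene in newly synthesized RNA (green, left of each pair) and total RNA (orange), with the authors' scaling. Dashed lines are the medians of all tested features (-2.80 in newly synthesized RNA, where only the selected features are listed, and -1.85 in total RNA). The enzymes lie around the line of newly synthesized RNA and above that of total RNA, and with TMM scaling the signs change as given in the text.

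The order of levels differed between the kinds of RNA. How reads shared by isoenzymes were counted is not known, which bears on the places of the TDH and ENO genes. In total RNA the order was FBA1, GPM1, ADH1, PGK1, TDH3, ENO2, CDC19, ENO1, TDH2 and TDH1 in auxin and in DMSO alike. Neighbours whose libraries overlapped were GPM1 and ADH1, ADH1 and PGK1, TDH3 and ENO2, and ENO1 and TDH2 in auxin, and ADH1 and PGK1, and ENO1 and TDH2, in DMSO. In newly synthesized RNA the order in auxin was TDH3, PGK1, FBA1, ADH1, ENO2, GPM1, CDC19, TDH2, ENO1 and TDH1, with every neighbouring pair among the first 6 overlapping. In DMSO it was PGK1, TDH3, FBA1, GPM1, ENO2, ADH1, CDC19, TDH2, ENO1 and TDH1, where neighbours among the first 4 overlapped, as did ENO2 with ADH1. FBA1 ranked 3 in auxin and 2 in DMSO among the 6270 protein-coding features of the total RNA table, and TDH1 ranked 723 in auxin and 540 in DMSO.

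The isoenzymes of a step can be compared within a library, which needs no scaling between libraries. The 3 GAPDH genes have the same coding length (999 bases), as do the 2 enolase genes (1314 bases), so their counts can be set against each other directly. TDH3 made up 83.5% and 84.5% of GAPDH gene counts in newly synthesized auxin libraries, against 75.1% and 74.4% in newly synthesized DMSO libraries. TDH2 made up 11.5% and 12.01% in auxin, against 17.5% and 17.4% in DMSO, and TDH1 made up 4.97% and 3.53%, against 7.45% and 8.25%. In total RNA, TDH3 made up 89.0% and 89.2% in auxin, against 84.4% and 84.2% in DMSO. TDH2 made up 8.71% and 8.68% in auxin, against 11.1% and 10.5% in DMSO, and TDH1 made up 2.28% and 2.11%, against 4.45% and 5.26%. The share of the major isoenzyme was higher in both auxin libraries than in both DMSO libraries in each kind of RNA. ENO1 made up 10.2% and 9.49% of enolase gene counts in newly synthesized auxin libraries, against 15.3% and 17.6% in newly synthesized DMSO libraries. In total RNA it made up 10.04% and 9.88% in auxin, against 12.5% and 14.0% in DMSO, so that the enolase shares moved in the same direction as the GAPDH shares.

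As log2 ratios, TDH1 to TDH3 differed by -1.07 between auxin and DMSO in newly synthesized RNA (pooled SD of the replicates 0.267) and by -1.22 in total RNA (0.134). TDH2 to TDH3 differed by -0.74 in newly synthesized RNA (0.0236) and by -0.40 in total RNA (0.0357). ENO1 to ENO2 differed by -0.84 in newly synthesized RNA (0.137) and by -0.46 in total RNA (0.0943). In each of these the groups did not overlap and the difference was larger than the spread between replicates. The exact two-sided permutation test gave p = 0.333 for each, the smallest that 2 against 2 libraries can give. Adjusted over all pairs of related genes, it was 0.476 (10 pairs) in newly synthesized RNA and 0.4 (12 pairs) in total RNA. These pairs include PFK1 and PFK2, which are subunits of phosphofructokinase and not isoenzymes. TDH1 to TDH2 differed by -0.83 in total RNA (pooled SD 0.166), without overlap. The difference in newly synthesized RNA was -0.34 (0.289) and the groups overlapped (exact permutation p = 0.667), with -0.62 without auxin replicate 1 and -0.06 without auxin replicate 2. How reads that match more than 1 of these near-identical genes were counted is not given in the sources used here, so the split of a step's counts between isoenzymes is uncertain.

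**Figure D3:**
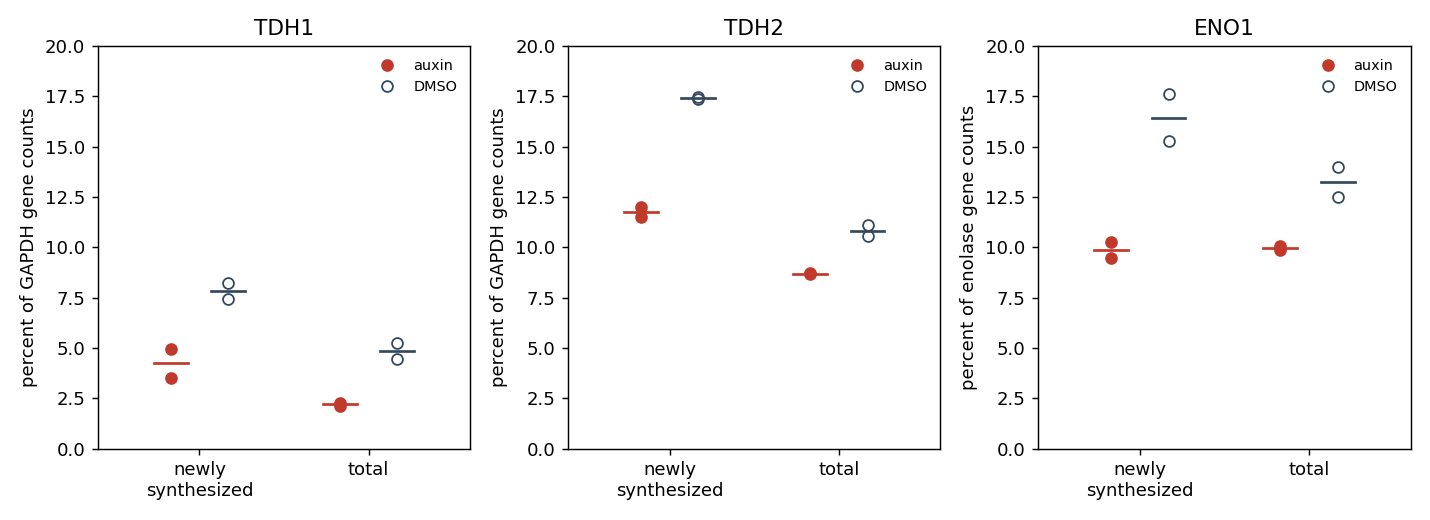
Percent of the GAPDH gene counts taken by TDH1 and by TDH2, and percent of the enolase gene counts taken by ENO1, in every library, with auxin as filled circles left of DMSO as open circles and group means as bars (2 libraries each). Each minor isoenzyme takes a smaller share in both auxin libraries than in both DMSO libraries, from 11.5% and 12.01% against 17.5% and 17.4% for TDH2 to 4.97% and 3.53% against 7.45% and 8.25% for TDH1 in newly synthesized RNA; shares do not depend on the scaling of libraries.

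Other pairs, in which a gene of the 10 stands beside a related gene of lower level outside them, gave a less uniform picture. In total RNA, PYK2 to CDC19 (a second pyruvate kinase) had a log2 ratio that differed by -1.35 between auxin and DMSO (pooled SD 0.230), GPM2 to GPM1 by -1.69 (0.0462), ADH3 to ADH1 (ADH3 is the mitochondrial alcohol dehydrogenase) by -0.42 (0.0698) and ADH5 to ADH1 by -2.09 (0.207), all without overlap. The same ratios differed in newly synthesized RNA by 0.38 for PYK2 to CDC19 (0.242), 0.20 for GPM2 to GPM1 (0.165), -0.01 for ADH3 to ADH1 (0.0561, overlapping) and -0.29 for ADH5 to ADH1 (0.0483). A lower ratio in auxin in both kinds of RNA was thus measured for ADH5 to ADH1. The differences above zero in newly synthesized RNA rested on auxin replicate 1: without it they were 0.14 for PYK2 to CDC19 and 0.03 for GPM2 to GPM1, and without auxin replicate 2 they were 0.62 and 0.36. HXK1 to HXK2, the hexokinase pair of the upper pathway, differed by -0.67 in newly synthesized RNA (0.220) and by -1.59 in total RNA (0.185). ADH2 to ADH1 and PDC5 to PDC1 overlapped between the groups in total RNA.

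The fold change of every one of the 10 genes was lower in newly synthesized than in total RNA. The difference of the log2 fold changes, newly synthesized minus total, had a median of -2.40 over the enzymes and -0.72 over the 2821 features in both tables, in an interaction fit over all 8 libraries. It was -2.71 for ENO1 (SE 0.281, edgeR adjusted p = 2.70e-20), -2.57 for GPM1, -2.48 for CDC19, -2.46 for FBA1 and -2.45 for TDH2. It was -2.36 for PGK1, -2.32 for ENO2, -2.28 for ADH1, -2.11 for TDH3 and -1.96 for TDH1 (SE 0.285, edgeR adjusted p = 5.00e-11). All 10 passed the test, as did 54.6% of the features in both tables with the authors' scaling. With TMM scaling all 10 still passed, with differences between -1.85 and -1.08, where 28.2% of features passed below zero and 26.6% above it. The features in both tables are those with low authors' p-values and fold changes in newly synthesized RNA, which bears on this background too.

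Over the 10 genes, the log2 fold change in total RNA and that in newly synthesized RNA had Pearson's r of 0.851 and Spearman's rho of 0.915. The log2 fold change in newly synthesized RNA and the log2 DMSO level in total RNA had r of 0.846 and rho of 0.673 (both over 10 genes from the same libraries, as a description). TDH1, ENO1 and TDH2, the genes of lowest level in total RNA, had the lowest fold changes in both kinds of RNA.

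The count of newly synthesized RNA over total RNA was low for these genes. On the log2 scale and relative to the median of the 2810 protein-coding features in both tables, it was -4.82 in auxin and -3.05 in DMSO for FBA1, and 1.81% of those features lay below it in DMSO. GPM1 stood at -4.50 in auxin and -2.63 in DMSO, ADH1 at -4.25 and -2.66, CDC19 at -4.38 and -2.60, and PGK1 at -3.83 and -2.16. ENO2 stood at -3.31 in auxin and -1.69 in DMSO, ENO1 at -3.33 and -1.32, and TDH3 at -2.81 and -1.39. TDH2 stood at -2.29 in auxin and -0.53 in DMSO, and TDH1 at -1.79 and -0.52, where 27.6% of the features lay below it in DMSO. Of the isoenzymes, the minor one had the higher ratio in DMSO: TDH1 and TDH2 above TDH3, and ENO1 above ENO2. Other genes of glycolysis and fermentation ran from -2.53 for TPI1 and -2.11 for PGI1 to 0.15 for PYK2 in DMSO. The 2810 features are part of the selected set listed in newly synthesized RNA. As background, transcripts that are long-lived make up a smaller part of new RNA than of total RNA; half-lives were not measured here.

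The 10 genes together took 2.98% and 2.87% of the listed counts of newly synthesized auxin libraries, against 2.98% and 3.01% in newly synthesized DMSO libraries. In total RNA they took 5.74% and 5.87% in auxin, against 5.04% and 4.92% in DMSO. The share in total RNA was higher in both auxin libraries, by 0.827 percentage points, and the exact two-sided permutation p was 0.333, the smallest possible. As a share of protein-coding counts alone they took 7.44% and 7.49% in auxin, against 6.01% and 5.81% in DMSO, a difference of 1.56 points. Among the 10, TDH1 and ENO1 had lower shares of total RNA counts in both auxin libraries (0.0109% and 0.0124% against 0.0228% and 0.0241% for TDH1; 0.0616% and 0.0665% against 0.0737% and 0.0789% for ENO1). FBA1, PGK1, GPM1, ENO2 and ADH1 had higher shares in both (for FBA1 1.65% and 1.55% in auxin, against 1.22% and 1.29% in DMSO), and TDH2, TDH3 and CDC19 overlapped between the groups. Of these, TDH3 did not overlap as a share of protein-coding counts (0.549% and 0.667% in auxin, against 0.515% and 0.455% in DMSO).

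Transcripts of equal level differ in how much they changed, so each gene was set beside the protein-coding features within 2-fold of its DMSO level per kb in total RNA, pathway genes left out. The log2 fold change of all 10 enzymes was below the median of their equals, with a median difference of -0.45; a change of library scaling shifts an enzyme gene and its equals together. FBA1 was at -0.32 from the median of its 9 equals, all of them cytosolic ribosomal protein genes. PGK1 was at -0.50 and ADH1 at -0.43 from that of 33 equals, 30 of them ribosomal, and GPM1 was at -0.54 from that of 25 equals, 23 of them ribosomal. TDH3 was at -0.46 (63 equals, 51 ribosomal), ENO2 at -0.46 (67 equals, 53 ribosomal) and CDC19 at -0.68 (83 equals, 60 ribosomal). The genes of lower level had mostly other equals: TDH1 was at -0.42 (758 equals, 25 ribosomal), ENO1 at -0.23 (314 equals, 43 ribosomal) and TDH2 at -0.08 (350 equals, 42 ribosomal).

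With genes matched on normalized count per gene instead of per kb, the median difference was -0.28. The difference also rested on the ribosomal protein genes, which had a median log2 fold change of 0.02 in total RNA, with 26 of 137 called lower with the authors' scaling. Without them the median difference was -0.10 over the 9 enzymes that still had equals, and its sign varied: TDH3 was at 0.58 from its 12 remaining equals and ENO2 at 0.35 from its 14, while TDH1 was at -0.39 from its 733. Leaving out the ribosomal protein genes was chosen after seeing the data. Within the listed newly synthesized RNA, by level in that fraction, TDH1 (-0.93), ENO1 (-0.91), TDH2 (-0.53), CDC19 (-0.39) and GPM1 (-0.20) lay below the median of their equals. TDH3 (0.31), ADH1 (0.18), FBA1 (0.08), PGK1 (0.05) and ENO2 (0.05) lay above it. The equals whose log2 fold change lay below that of the minor isoenzyme there were 4 of 605 for TDH1, 6 of 434 for ENO1 and 18 of 254 for TDH2. A low place was not particular to minor isoenzymes, as CDC19 had 18 of 182 equals below it. The remaining enzymes ran from 7 of 29 for GPM1 to 19 of 23 for TDH3.

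**Figure D4:**
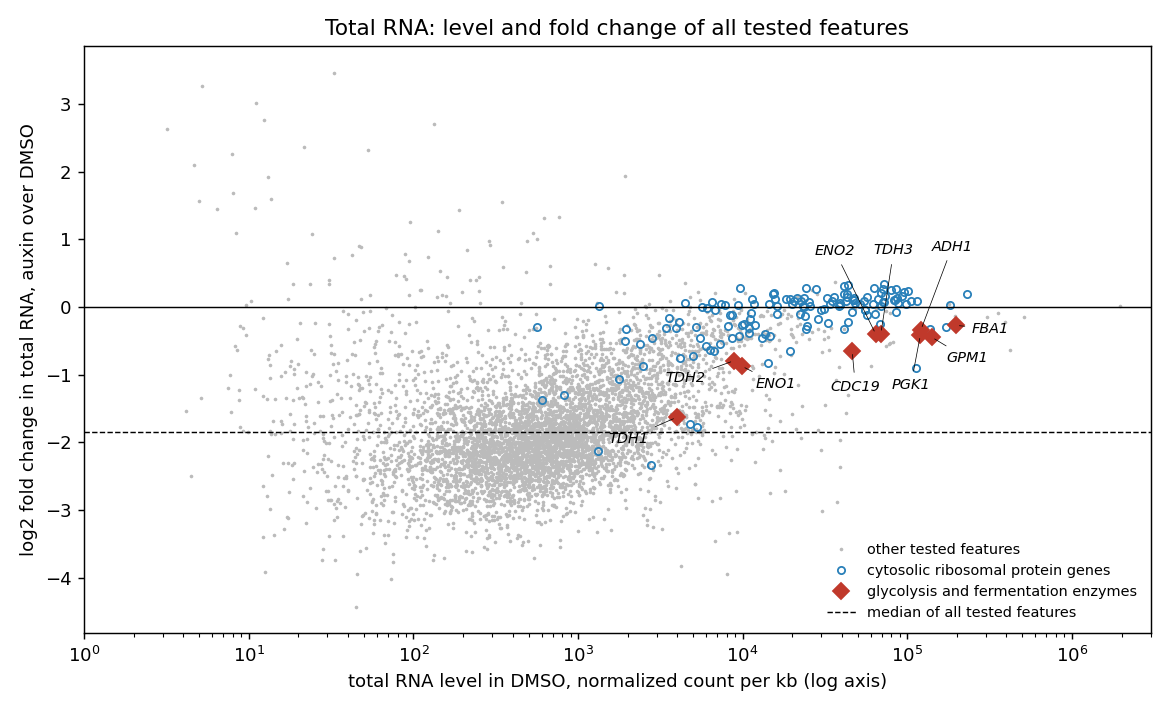
Log2 fold change in total RNA, auxin over DMSO with the authors' scaling, against the DMSO level in normalized count per kb (log axis) for all 5589 tested features, with the enzyme genes as red diamonds, cytosolic ribosomal protein genes as blue circles and the median of all features (-1.85) dashed. The 7 abundant enzymes lie below most ribosomal protein genes of like level, and TDH1, TDH2 and ENO1 lie among other features; TMM scaling moves all points up by about the same amount and puts all 10 enzymes above zero.

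The 2 features nearest to each gene in DMSO level show the range, and are named with their log2 fold changes in total RNA under the authors' scaling. FBA1 (-0.27) stood above RPS12 (0.03) and RPL10 (-0.29) in level, both of which encode ribosomal proteins. PGK1 (-0.41) and ADH1 (-0.34) shared the neighbours RPS2 (0.10) and RPL3 (-0.90), and GPM1 (-0.44) had RPL15A (-0.32) and RPS2. TDH3 (-0.39) stood beside RPL32 (0.02) and RPL25 (0.20), CDC19 (-0.65) beside RPL24A (-0.07) and RPS17B (0.10), and ENO2 (-0.40) beside RPS18B (-0.11) and YEF3 (-0.02), which encodes translation elongation factor 3. Among genes of lower level, TDH2 (-0.79) stood beside SUI1 (-0.25), the initiation factor eIF1, and GUK1 (0.12), guanylate kinase. ENO1 (-0.87) stood beside CBR1 (-0.05), a cytochrome b reductase, and YDJ1 (-1.65), an HSP40 co-chaperone. TDH1 (-1.63) stood beside RPN2 (-0.89), a proteasome subunit, and ADE13 (-0.89), adenylosuccinate lyase. Of these neighbours only RPL3, YDJ1, RPN2 and ADE13 were called lower with the authors' scaling, and none had a fold change below zero with TMM.

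Features outside the pathway with the pattern most like the enzymes' median were found by Euclidean distance over 4 values, the log2 ratio of each auxin library to the DMSO mean in total and newly synthesized RNA, among 2778 protein-coding features. They were YPL231W, the alpha subunit of fatty acid synthetase (distance 0.0659), YGR124W, an asparagine synthetase (0.0905), YEL001C, a protein of unknown function at the endoplasmic reticulum (0.0947), YML085C, alpha-tubulin (0.108), and YBR106W, a protein of endoplasmic reticulum targeting (0.115). Of the enzymes themselves, GPM1 (0.173) and PGK1 (0.206) lay nearest to their own median, and ENO1 (1.13) and TDH1 (1.96) farthest.

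The rest of the pathway was described from a list of 27 other genes, of which 25 passed the filter of a mean of 10 counts in total RNA (FBP1 and PDC6 did not). With the authors' scaling 23 of the 25 were called lower, none higher, and PGI1 and PFK1 were not called; with TMM 7 were lower and 9 higher. The background was 92.3% lower with the authors' scaling, and 32.3% lower and 29.6% higher with TMM, so these counts were close to those of all tested features. Leaving out 1 library in turn kept the log2 fold change of all 25 below zero with the authors' scaling, nearest to it for PGI1 (-0.20). Not all calls held. Their median log2 fold change in total RNA was -1.63, against -1.85 over all tested features. The 16 tested genes of glycolysis and fermentation had a median of -0.93. Those of the single-copy or major enzymes lay near the 10: PGI1, phosphoglucose isomerase, had -0.31 (SE 0.201, edgeR adjusted p = 0.126), PFK1 and PFK2, the subunits of phosphofructokinase, -0.40 and -0.45, TPI1, triose phosphate isomerase, -0.54, and HXK2, the main hexokinase on glucose, -0.66. ADH3 had -0.75, and PDC1, the main pyruvate decarboxylase, -0.90, a call that was lost without DMSO replicate 1 (edgeR adjusted p = 0.292). Minor isoenzymes had lower values, among them HXK1 (-2.22), PYK2 (-1.98) and ADH5 (-2.42), while GLK1, glucokinase, had -1.62 and ADH4 -1.53. GPM2 (-2.12) and GPM3 (-2.23), genes related to GPM1, also had lower values. PDC5, a minor pyruvate decarboxylase, was an exception with -0.52, and ADH2, the glucose-repressed alcohol dehydrogenase, had -0.96 with groups that overlapped.

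Beyond the main path, the 4 genes of the glycerol branch were called lower in total RNA, with log2 fold changes of -2.79 for GPD2, -2.68 for GPD1, -1.63 for GPP1 and -1.37 for GPP2, in a background of 92.3% called lower. With TMM scaling GPD1 and GPD2 stayed lower, GPP2 was higher and GPP1 was not called. All 4 were lower in newly synthesized RNA with both scalings, with a median log2 fold change of -3.31 under the authors' scaling, where 100% of the listed features were called lower, against 25% with TMM. The activators of glycolytic genes had log2 fold changes in total RNA of -1.71 for RAP1, -1.88 for GCR1 and -1.93 for TYE7, near the median of all features (-1.85), and of -2.45 for GCR2, below it; GCR2 alone of the 4 stayed lower with TMM. PCK1, the gluconeogenic PEP carboxykinase, which is repressed on glucose, had a mean of few counts and a log2 fold change of -2.31 (SE 0.464). Of the 27 genes, 22 were listed in newly synthesized RNA, all lower with the authors' scaling, as the table's selection sets; their log2 fold changes ran from -3.44 for GPD1 to -2.30 for HXK2.

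PGK1, GPM1 and CDC19 overlap a gene on the opposite strand, and whether strand was used in counting is not stated in what was read here. These partners had few counts in total RNA: 2 and 11 in auxin and 6 and 8 in DMSO for YCR013C (opposite PGK1), 10 and 3 in auxin and 12 and 10 in DMSO for YKL153W (opposite GPM1), and 0 and 1 in auxin and 2 and 2 in DMSO for YAL037C-B (opposite CDC19). The genes themselves had 110925 and 143741 raw counts in auxin and 154038 and 116151 in DMSO for PGK1, the most of the 3.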

How the data were processed

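Each RNA fraction had 1 table of raw counts, which the authors deposited as whole numbers. Their normalized signal is that count over the library's size factor, as the deposited values show. The authors' log2 fold change and p-values are named per the file headers; the p-values served only to find which features the newly synthesized RNA table holds. Libraries were stranded and depleted of ribosomal RNA, per the labels' protocols. The submitters' processing notes name sacCer3 and bcl2fastq 2.17.1.14; aligner, counter and the basis of the size factors are not given in the sources used here.

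Each whole table was fitted with edgeR 4.0.16 in R 4.3.3 (quasi-likelihood F test, mean count of 10 or more, treatment as the term, the authors' size factors, Benjamini-Hochberg adjusted p below 0.05), and the difference between fractions by an interaction over all libraries. Alternatives were TMM and DESeq2 1.42.0 size factors, the DESeq2 test, other filters, replicate blocks and leaving out each library. Fits were tested on simulated data with as many features raised as lowered and no global shift, which differs from these data. Named genes were the 10 enzymes, a list of 27 pathway genes, the 2 nearest in level to each enzyme gene, the 5 nearest in pattern, and MED14 and MED17. The enzyme genes and lists were chosen with earlier results of these data known.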

Additional observations from a re-analysis of the deposited data

Results flagged for a closer look

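The fold change differed between newly synthesized and total RNA for each of the 10 enzyme genes by an interaction test (edgeR, adjusted over 2821 features), which is why these values are given again together. The difference, newly synthesized minus total on the log2 scale, was -2.71 for ENO1, -2.57 for GPM1, -2.48 for CDC19, -2.46 for FBA1, -2.45 for TDH2, -2.36 for PGK1, -2.32 for ENO2, -2.28 for ADH1, -2.11 for TDH3 and -1.96 for TDH1. With the authors' scaling 54.6% of the features in both tables passed below zero, and the newly synthesized RNA table holds only features with low fold changes, whose part in these values was not tested.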

How the results depend on the processing

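The scaling set the direction. With TMM, 0 of the 10 genes were called lower and 9 higher in total RNA, with a median log2 fold change of 1.34 and 3457 features called, against 5200 with the authors' scaling; single values were FBA1 1.501, TDH1 0.13, TDH2 0.96, TDH3 1.36, PGK1 1.36, GPM1 1.32, ENO1 0.89, ENO2 1.36, CDC19 1.10 and ADH1 1.43. With DESeq2 size factors it was 0 lower and 9 higher, a median of 1.41, 3355 features called, and FBA1 1.57, TDH1 0.21, TDH2 1.03, TDH3 1.43, PGK1 1.43, GPM1 1.39, ENO1 0.97, ENO2 1.43, CDC19 1.18 and ADH1 1.503. In newly synthesized RNA, TMM gave 5 lower, a median of -0.10 and 1302 features called, with FBA1 0.053, TDH3 0.29, PGK1 0.023, ENO2 0.076 and ADH1 0.18; DESeq2 size factors gave 5 lower, a median of -0.091 and 1308 features called, with FBA1 0.061, TDH3 0.29, PGK1 0.031, ENO2 0.084 and ADH1 0.18. The basis of the authors' factors was not tested. The DESeq2 test with the authors' factors also called TDH3 (adjusted p = 0.0241) and ADH1 (0.0245). Leaving out 1 library in turn gave a median log2 fold change of the 10 genes in total RNA between -0.61 and -0.32, and some calls were lost. The median difference from genes of equal level was -0.45, -0.28 with genes matched on level per gene, and -0.098 without ribosomal protein genes. The share of total RNA counts differed by 1.56 points over protein-coding counts, against 0.827 over all counts. Some differences in the ratio of related genes turned sign without 1 library. In newly synthesized RNA the difference ran from -0.062 to 0.043 for ADH3 to ADH1 and from -0.052 to 0.024 for PFK1 to PFK2. In total RNA it ran from -0.27 to 0.88 for PDC5 to PDC1. ADH3 to ADH1 was at 0.011 without DMSO replicate 1.

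The replicate numbers were not shown to pair the samples: same-numbered auxin and DMSO libraries deviated with r = -0.159 in total RNA and 0.0515 in newly synthesized RNA. Same-numbered total and newly synthesized RNA libraries deviated with r = 0.101 in auxin and 0.160 in DMSO, and all 10 interaction calls held with the replicate block. With the replicate block, 10 of 10 genes were called lower in total RNA. Of all 5589 tested features, 5277 were then called, 51 of them higher. With the numbers crossed, chosen after seeing the data, 3 of the 10 were called lower. That fit called 5019 of all tested features, 37 of them higher. With 2 libraries a group, exact tests cannot go below p = 0.333.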

Other observations

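PDC1, the main pyruvate decarboxylase, had the widest spread between the DMSO libraries of total RNA among the 1947 features with at least 1000 counts in both: replicate 1 had 1.96 times the level of replicate 2, against a ratio of 0.984 in newly synthesized RNA. PDC1 stood at 3325 and 4685 normalized counts per kb in total auxin libraries, against 9866 and 5027 in total DMSO libraries (log2 fold change -0.90), and edgeR called it lower (adjusted p = 1.11e-05) while DESeq2 did not (adjusted p = 0.0971). Without DMSO replicate 1, the ratio of PDC5 to PDC1 changed sign.

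Between the DMSO libraries of newly synthesized RNA, among 2290 features, HXK1 ranked 2, ENO1 14 and TDH1 51 in distance from the median ratio, with replicate 1 at 0.674, 0.732 and 0.780 of replicate 2. These genes were picked after their values were seen. Other minor isoenzymes or related genes ranked far lower, with PYK2 at 628, TDH2 at 1428, ADH3 at 1693, GPM3 at 1725 and ADH5 at 2137.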
